A study of Mus musculus with 6 samples.

Results

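Replacement histone variants are histones that can be put into chromatin at any time of the cell cycle, in place of the core and linker histones that are made in bulk during DNA replication. The genes examined were H2az1 and H2az2, which encode the H2A.Z proteins, H2ax, Macroh2a1, H3f3a and H3f3b, which both encode histone H3.3, and the linker histone gene H1f0. All probe sets annotated to these 7 genes by their current or older symbols (H2afz, H2afv, H2afx and H2afy among them) were taken, which gave 15 of the 45037 probe sets on the array that are not manufacturer controls. Of these 15, 8 named a single gene and 7 named several, and 6 of the 7 genes were measured. No probe set was annotated to H1f0, which was not analysed here. The group was put together with results of these arrays in view, and the study had listed an H2az1 probe set, 1438092_x_at, from the same arrays. The levels of the members are therefore given as a description, without p-values.

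RNA came from the spleen cells of female NOD mice, an inbred strain in which T cells destroy the insulin-producing beta cells of the pancreas, and was hybridised to Affymetrix arrays that cover the mouse genome. The TSA-treated mice had received trichostatin A (TSA), which blocks histone deacetylases, in weekly doses of 500 µg/kg between 18 and 24 weeks of age, and only mice that were free of diabetes after treatment were included. The diabetic mice were untreated and overtly diabetic, and the non-diabetic mice were untreated and had no diabetes. The labels give an age of 32 to 36 weeks and a pool of 3 to 5 mice for every group, while the methods give other ages, younger for the diabetic mice, and other pool sizes. Each group was 1 RNA pool hybridised to 2 arrays, so that the spread between arrays is technical and does not hold the variation between mice. The comparison mice are labelled untreated and no vehicle group was analysed here, so that TSA and its injection cannot be told apart. Values are log2 levels, on which a difference of 1 is a doubling, and levels of different probe sets are not compared with each other.

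H2A.Z is placed in nucleosomes next to active and poised promoters by the SRCAP and p400 remodelling complexes and is taken out by the chaperone ANP32E. H2A.X is the variant that is phosphorylated around DNA breaks, macroH2A carries a large non-histone domain and gathers on silent chromatin such as the inactive X chromosome, and H3.3 is deposited outside replication by the HIRA complex at active genes and by DAXX and ATRX at repeats. In the spleen these genes are active in lymphocytes, myeloid cells and, in the mouse, the erythroid precursors of the red pulp. In RNA of mixed cells, fewer cells of a type and less RNA per cell cannot be told apart.

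The arrays differed in quality, most of all TSA-treated replicate 2, while TSA-treated replicate 1 lay near diabetic replicate 2 on the actin control. Median levels lay between 3.79 and 3.95 on all 6 arrays. The gap between the 3′ and 5′ actin control probe sets, which widens when RNA is degraded or copied incompletely, was 3.45 and 5.61 on the TSA-treated arrays, 2.42 and 3.32 on the diabetic arrays and 2.35 and 2.05 on the non-diabetic arrays. The same gap for Gapdh was 3.85 and 4.58 on the TSA-treated, 1.82 and 3.19 on the diabetic and 2.67 and 1.91 on the non-diabetic arrays, so that the TSA-treated arrays had the widest gaps on both controls while the diabetic and non-diabetic arrays overlapped for Gapdh. Duplicates of a pool correlated over all probe sets at 0.966 in the TSA-treated, 0.973 in the diabetic and 0.993 in the non-diabetic group, whereas diabetic replicate 2 and TSA-treated replicate 1 reached 0.990 and diabetic replicate 1 and non-diabetic replicate 1 reached 0.987. The duplicates of the TSA-treated and of the diabetic pool were thus less alike than some pairs from different groups. Of the markers of splenic cell types, 4 B cell genes had a mean level of 8.55 and 7.44 on the TSA-treated, 9.45 and 8.96 on the diabetic and 9.61 and 9.59 on the non-diabetic arrays, which are levels well above the array median. Genes of the exocrine pancreas, which encode digestive enzymes and their cofactors, had a mean level over 4 genes of 8.77 and 7.92 in the TSA-treated, 11.74 and 11.74 in the diabetic and 4.99 and 4.97 in the non-diabetic group.

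H2az1, which encodes the main H2A.Z protein, had its highest levels in the TSA-treated spleens, intermediate levels in the diabetic spleens and its lowest levels in the non-diabetic spleens. The probe set with the highest mean level, 1438091_a_at, read 12.37 and 13.06 on the TSA-treated, 12.15 and 12.18 on the diabetic and 11.53 and 11.57 on the non-diabetic arrays. No array of a group overlapped with one of another group. Means were 12.72 ± 0.49, 12.16 ± 0.02 and 11.55 ± 0.02 in the TSA-treated, diabetic and non-diabetic groups (SD, n = 2 arrays each). The TSA-treated level was thus 2.24-fold the non-diabetic level (log2 difference 1.17, SE 0.25), and the diabetic level was 1.53-fold the non-diabetic level (log2 difference 0.61, SE 0.25). TSA-treated and diabetic spleens differed by 0.55 (SE 0.25). The size of both differences of the TSA-treated group depended on the array. Without TSA-treated replicate 2 they were 0.82 against the non-diabetic and 0.21 against the diabetic group, and without TSA-treated replicate 1 they were 1.51 and 0.90.

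The H2az1 probe set that the study listed, 1438092_x_at, followed the same order. Its levels were 11.00 and 11.37 in the TSA-treated, 10.50 and 10.44 in the diabetic and 9.94 and 9.94 in the non-diabetic group, again without overlap. The difference from the non-diabetic group was 1.25 (SE 0.18) for TSA-treated and 0.53 for diabetic spleens. Since this probe set was picked by the study from these arrays for its difference, it is no independent evidence of the direction. By qRT-PCR on RNA from other mice, the paper reports higher H2afz in TSA-treated than in diabetic mice in the spleen but not in the pancreas. Its primer list prints the same sequence for the forward and the reverse H2afz primer, so the assay cannot be judged from that list.

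The remaining pair of H2az1 probe sets also name the predicted gene Gm8203 and cannot separate the 2 sources. 1456032_x_at had the order of the other probe sets without overlap, with 9.95 and 10.10 in TSA-treated, 9.50 and 9.31 in diabetic and 8.88 and 9.0 in non-diabetic spleens. 1416415_a_at read 12.53 and 12.32 on the TSA-treated, 11.93 and 12.55 on the diabetic and 11.58 and 11.49 on the non-diabetic arrays. For this probe set both the TSA-treated and the diabetic arrays lay above the non-diabetic arrays, but they overlapped with each other, and their difference was 0.19 (SE 0.24). All 4 H2az1 probe sets therefore placed the non-diabetic arrays lowest, and 3 of the 4 separated the TSA-treated from the diabetic arrays.

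H2az2, the paralogue that encodes a nearly identical H2A.Z protein, had the same order of group means. The probe set with the highest mean level, 1428029_a_at, read 9.01 and 9.18 in TSA-treated, 8.63 and 8.82 in diabetic and 8.61 and 8.32 in non-diabetic spleens. The TSA-treated arrays lay above all others, while the lower diabetic array and the higher non-diabetic array were nearly level. The log2 difference between TSA-treated and non-diabetic spleens was 0.63 (SE 0.19), or 1.54-fold, and that between diabetic and non-diabetic spleens was 0.25. The dim probe set 1436596_at, which lay near the median of the array, read 4.57 and 5.00 in the TSA-treated, 3.83 and 4.90 in the diabetic and 4.15 and 3.48 in the non-diabetic group, with overlap between the diabetic arrays and those of both other groups. Its differences were 0.97 (SE 0.41) for TSA-treated minus non-diabetic and 0.55 for diabetic minus non-diabetic spleens, the second being 0.015 without diabetic replicate 2 and 1.09 without diabetic replicate 1.

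The sequences before the start sites of these genes were read because the H2A.Z and H3.3 members can be compared at their promoters. RefSeq (GRCm38.p6) gave a promoter for 6 of the 7 members, all but H2ax. The letters CCAAT, which the factor NF-Y binds, were searched on both strands over the 250 bases before the start, together with GGGCGG, bound by Sp1, and TATAAA, the TATA box. CCAAT occurred 2 times before H2az1, 4 times before H2az2, 4 times before H3f3b, 1 time before H3f3a and 0 times before H1f0 and Macroh2a1. Of 32851 promoters of this length, 33.8% held at least 1 copy, 10.1% at least 2 and 0.84% at least 4. GGGCGG was found 1 time each before H2az1 and H2az2, 2 times before Macroh2a1 and 4 times before H3f3a, against at least 1 copy in 32.7% of promoters. TATAAA was found only before H3f3b, 1 time, and in 12.4% of all promoters. The stretches that hold the copies compared here are given 5′ to 3′ on the strand of the gene, with CCAAT or its reverse complement ATTGG in capitals. They are the whole 250 bases before H2az1 (chr3:137864237-137864486, plus strand), 182 bases before H2az2 (chr11:6444512-6444693, minus strand), which hold 2 of its 4 copies, and 30 bases before H3f3b (chr11:116024690-116024719, minus strand), which also hold 2 of its 4. For H2az2 only the bases outside the annotated span of the gene are given. Its other copies, 13 to 17 and 55 to 59 bases before the start used here, lie inside that span.
H2az1: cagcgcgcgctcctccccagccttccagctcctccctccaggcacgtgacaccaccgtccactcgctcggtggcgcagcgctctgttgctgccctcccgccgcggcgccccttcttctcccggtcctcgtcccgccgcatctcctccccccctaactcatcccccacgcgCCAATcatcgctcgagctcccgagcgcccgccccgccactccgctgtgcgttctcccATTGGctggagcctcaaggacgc
H2az2: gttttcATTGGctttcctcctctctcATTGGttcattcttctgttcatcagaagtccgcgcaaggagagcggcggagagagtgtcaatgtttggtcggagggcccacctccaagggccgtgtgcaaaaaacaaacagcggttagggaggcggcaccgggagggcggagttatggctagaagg
H3f3b: gCCAATcctgaagcaattgtaacagCCAAT
In H2az1 the copy nearest the start lay 19 to 23 bases before it and the other 76 to 80 bases before it. These matches describe the letters in the windows and do not show that a factor was bound there.

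**Figure D1:**
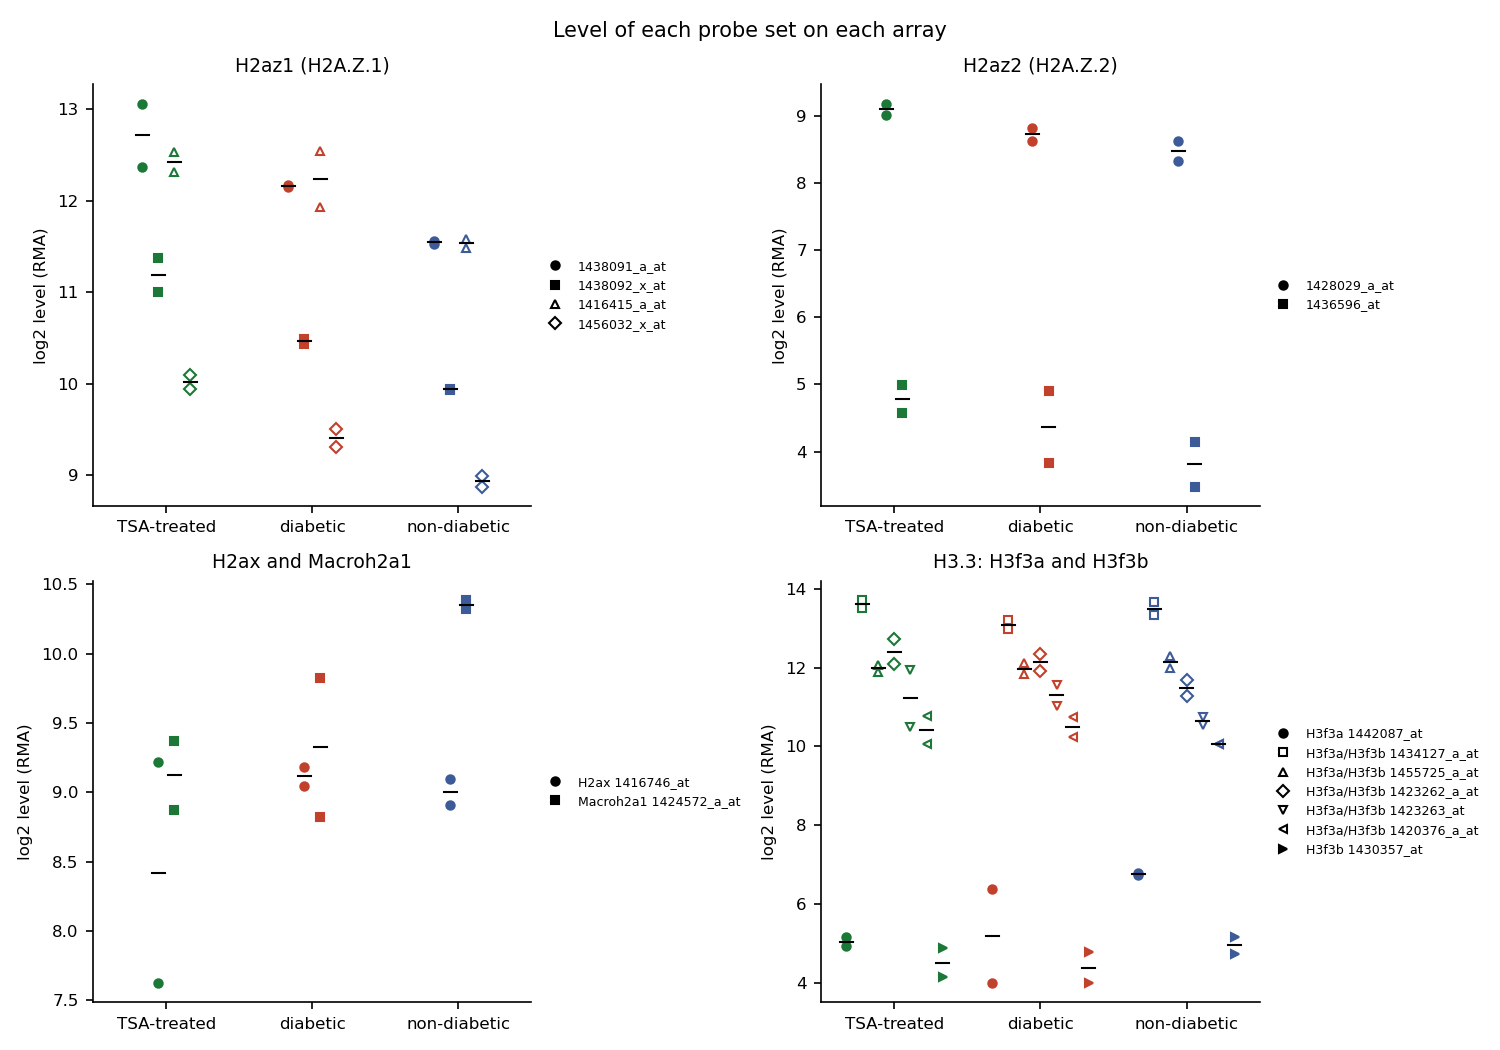
Log2 level (RMA) of every probe set of the replacement histone variants on each array, by group, with a bar at the mean of the 2 arrays; filled symbols are probe sets that name 1 gene and hollow symbols are those that name several. H2az1 and H2az2 lie highest in the TSA-treated group, Macroh2a1 lies highest on the non-diabetic arrays at 10.39 and 10.32, and H2ax on TSA-treated replicate 2 stands apart at 7.62.

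H2ax showed no difference that both TSA-treated arrays shared. The gene was measured by 1 probe set, 1416746_at, which read 9.22 and 7.62 on the TSA-treated, 9.19 and 9.04 on the diabetic and 9.10 and 8.91 on the non-diabetic arrays. TSA-treated replicate 1 was the highest of the 6 arrays and replicate 2 the lowest. The log2 difference of TSA-treated from non-diabetic spleens was −0.58 (SE 0.49), and it was 0.22 without TSA-treated replicate 2. Diabetic and non-diabetic spleens differed by 0.11.

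Macroh2a1, which encodes the macroH2A1 proteins, had lower levels in both the TSA-treated and the diabetic spleens than in the non-diabetic spleens. Its single probe set, 1424572_a_at, read 9.37 and 8.87 in the TSA-treated, 9.83 and 8.82 in the diabetic and 10.39 and 10.32 in the non-diabetic group. Both non-diabetic arrays lay above the other 4, and the TSA-treated and diabetic arrays overlapped with each other. Means were 9.12 ± 0.35, 9.32 ± 0.71 and 10.35 ± 0.05 in TSA-treated, diabetic and non-diabetic spleens (SD, n = 2 arrays each). The log2 difference from the non-diabetic group was −1.23 (SE 0.36) for TSA-treated and −1.03 (SE 0.36) for diabetic spleens. The diabetic difference was −0.53 without diabetic replicate 2 and −1.53 without diabetic replicate 1. The TSA-treated minus diabetic difference was −0.20 (SE 0.36), within its error, and it was −0.71 without diabetic replicate 2 and 0.30 without diabetic replicate 1.

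H3.3 is encoded by H3f3a and H3f3b, which give the same protein from transcripts that differ, and the array read it mostly through probe sets that cannot tell them apart. 5 probe sets named both genes together with H3f3c and 3 predicted genes, 6 genes in all. They were bright on every array and had no common direction. 1434127_a_at read 13.71 and 13.51 in TSA-treated, 13.19 and 12.97 in diabetic and 13.65 and 13.33 in non-diabetic spleens. 1423262_a_at read 12.71 and 12.09 in TSA-treated, 11.92 and 12.34 in diabetic and 11.68 and 11.29 in non-diabetic spleens. These are the probe set with the highest mean level and the one with the largest TSA-treated minus non-diabetic difference of the 5, 0.92. Over the 5 probe sets the log2 difference lay between −0.16 and 0.92 for TSA-treated minus non-diabetic, between −0.41 and 0.66 for diabetic minus non-diabetic, and between −0.09 and 0.53 for TSA-treated minus diabetic spleens.

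The probe set that names H3f3a alone, 1442087_at, had the largest difference from the non-diabetic group among all members. It read 5.16 and 4.95 on the TSA-treated, 6.39 and 4.02 on the diabetic and 6.79 and 6.75 on the non-diabetic arrays. The lowest of these, on diabetic replicate 2, lay near the median of that array, 3.79. Both non-diabetic arrays lay above the other 4, and the diabetic arrays, which differed by more than the groups did, lay on either side of the TSA-treated arrays. The log2 difference from the non-diabetic group was −1.71 (SE 0.71) for TSA-treated and −1.57 (SE 0.71) for diabetic spleens, the second being −0.39 without diabetic replicate 2 and −2.75 without diabetic replicate 1. The probe set of H3f3b alone, 1430357_at, was dim, with 4.90 and 4.15 in TSA-treated, 4.78 and 4.0 in diabetic and 4.76 and 5.17 in non-diabetic spleens, and its groups overlapped. None of the 5 probe sets that H3f3a shares with H3f3b had a TSA-treated minus non-diabetic difference below −0.16.

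**Figure D2:**
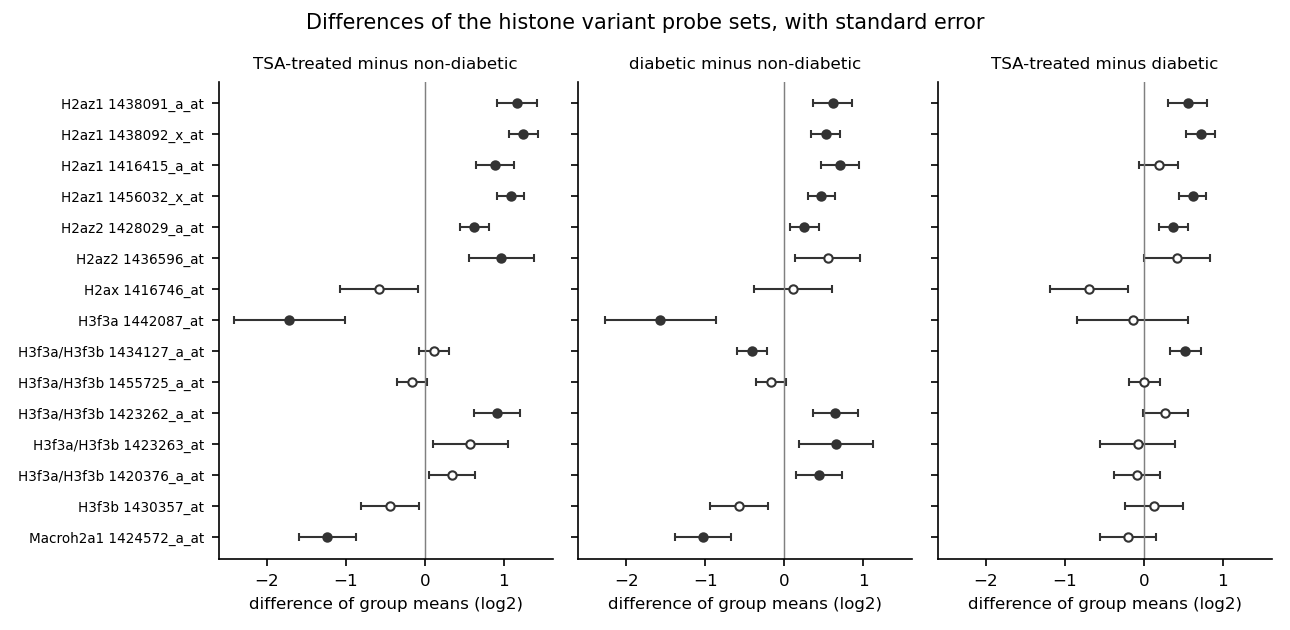
Log2 difference of group means for the 15 probe sets of the replacement histone variants in each comparison, with bars of 1 standard error from the limma fit; filled points are probe sets whose arrays do not overlap between the groups. The 4 H2az1 probe sets lie between 0.89 and 1.25 in TSA-treated minus non-diabetic spleens, and Macroh2a1 at −1.23 and H3f3a at −1.71 lie on the other side of 0.

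Set side by side, the members did not move as 1 group. With each gene represented by its brightest probe set that names it alone, the median difference over the 6 genes was −0.51 for TSA-treated minus non-diabetic, −0.23 for diabetic minus non-diabetic and −0.01 for TSA-treated minus diabetic spleens, against 0.07, 0.04 and 0.02 over all 18193 genes. The first of these values was 0.077 without TSA-treated replicate 2 and −1.09 without TSA-treated replicate 1. It lies between the differences of H2ax (−0.58) and of the dim H3f3b probe set (−0.44). H3.3 enters these medians only through 1442087_at and 1430357_at. The brighter probe sets that H3f3a and H3f3b share, at −0.16 to 0.92 for TSA-treated minus non-diabetic, do not enter them. Arrays did not overlap and the TSA-treated group was higher for 7 of the 15 probe sets against the non-diabetic group, beside 26.3% of all probe sets, and lower for 2, beside 21.5%. For diabetic against non-diabetic spleens, 8 were higher, beside 21.6%, and 3 lower, beside 19.4%. For TSA-treated against diabetic spleens, 5 were higher, beside 16.2%, and 0 lower, beside 11.4%. The 7 include all 4 probe sets of H2az1 and the 2 of H2az2, and the 8 also include all 4 of H2az1, so that 1 gene counts several times. The comparisons share arrays and are not independent of each other.

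By limma with Benjamini-Hochberg adjustment over all probe sets, 0 of the 15 were called at an adjusted p under 0.05 in any of the comparisons, beside 0.0688% of all probe sets for TSA-treated minus non-diabetic, 0.0888% for diabetic minus non-diabetic and 0.0266% for TSA-treated minus diabetic. At an unadjusted p under 0.05, 7 of the 15 passed for TSA-treated minus non-diabetic (14.7% of all probe sets), 6 of them higher (6.39%) and 1 lower (8.34%). For diabetic minus non-diabetic spleens 4 passed (6.27%), 3 higher (2.84%) and 1 lower (3.43%). For TSA-treated minus diabetic spleens 3 passed (4.27%), 3 higher (2.21%) and 0 lower (2.06%). The methods' t-test passed 5, 2 and 1 of the 15 unadjusted in these comparisons (11.6%, 5.92% and 3.02% of all probe sets) and 0 after adjustment. The limma calls of higher level at an unadjusted p under 0.05 included all 4 H2az1 probe sets for TSA-treated minus non-diabetic. For diabetic minus non-diabetic they were all of H2az1. Since the members were chosen on these arrays, nothing is read from these counts. Some calls appeared when 1 array was left out, in fits where the lone array of a group is assumed to vary like the duplicates of the other groups. Calls without TSA-treated replicate 1 rest on replicate 2 alone, the array with the widest actin gap. There, 1438091_a_at, 1438092_x_at and 1456032_x_at of H2az1 differed from the non-diabetic group by 1.51, 1.43 and 1.16. H2ax differed by −1.38 from the non-diabetic and by −1.49 from the diabetic group. Without TSA-treated replicate 2 instead, the H2az1 differences were 0.82, 1.06 and 1.01, and those of H2ax were 0.22 and 0.10. Without diabetic replicate 1 or without diabetic replicate 2, H3f3a on its own probe set was called in TSA-treated minus non-diabetic spleens, beside 1.59%, and without diabetic replicate 1 it was also called in diabetic minus non-diabetic spleens, beside 0.54%.

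The actin gap moved with the level of several members. The 2 arrays with the widest gap, TSA-treated replicate 2 at 5.61 and TSA-treated replicate 1 at 3.45, were also those with the highest H2az1 levels on 1438091_a_at, at 13.06 and 12.37. Over the 6 arrays, the level correlated with the gap at r = 0.64 to 0.93 for the 4 H2az1 probe sets (0.93 for 1438091_a_at), 0.82 and 0.90 for the H2az2 probe sets, −0.79 for Macroh2a1, −0.85 for H2ax and −0.65 for H3f3a on its own probe set. For H2ax the only low array was the one with the widest gap. These are descriptions over 3 pools with 2 arrays each, in which group and gap move together, and the part of RNA quality in the levels was not tested.

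**Figure D3:**
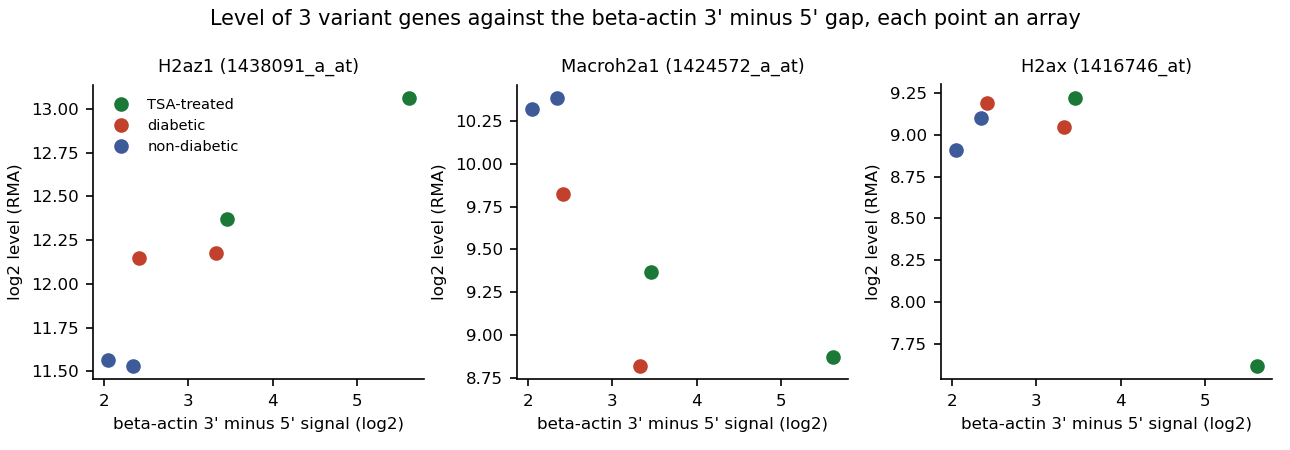
Log2 level of H2az1, Macroh2a1 and H2ax on each array (vertical axes) against the log2 gap between the 3′ and 5′ actin control probe sets (horizontal axes), coloured by group. TSA-treated replicate 2 lies farthest to the right at 5.61, with the highest H2az1 and the lowest H2ax level.

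The genes whose levels over the 6 arrays were most like H2az1 on 1438091_a_at, among 12953 probe sets compared, were Mycbp (Pearson r = 0.999), which encodes a MYC-binding protein, Tmx1 (0.996), a thioredoxin-like protein of the endoplasmic reticulum, Polh (0.996), the DNA polymerase that copies past ultraviolet damage, Wdr61 (0.995), a subunit of the PAF1 and SKI complexes, and Rec114 (0.993), a meiotic recombination factor. Mycbp, for example, read 6.27 and 6.93 in TSA-treated, 6.04 and 6.14 in diabetic and 5.48 and 5.48 in non-diabetic spleens. These likenesses rest on 3 pools with 2 arrays each.

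The counts of listed genes at an unadjusted p under 0.05 that follow are to be set beside those of all 18193 genes, of which 8.8% were higher and 7.19% lower in TSA-treated minus non-diabetic, 4.33% higher and 2.41% lower in diabetic minus non-diabetic, and 2.68% higher and 2.81% lower in TSA-treated minus diabetic spleens. Among the factors that deposit or remove the variants, 25 of 26 listed genes were measured and 0 were called in any comparison by limma (TSA-treated minus non-diabetic, 6 higher and 2 lower at an unadjusted p under 0.05; diabetic minus non-diabetic, 6 and 3; TSA-treated minus diabetic, 2 and 1). Their median differences in the same order of comparisons were 0.06, 0.22 and 0.00, close to those of all genes in the first and the last. Dek, a chromatin protein that acts as an H3.3 chaperone and that the study also listed from these arrays, read 12.84 and 13.10 in TSA-treated, 12.34 and 12.60 in diabetic and 11.82 and 11.80 in non-diabetic spleens. The groups of Dek did not overlap, and its order was that of H2az1. Supt16, a subunit of the chaperone FACT, differed by 0.01 and Nap1l1, a nucleosome assembly protein, by 0.22 between TSA-treated and non-diabetic spleens. Of genes chosen after their values were seen, the H3-H4 chaperones Asf1a and Asf1b lay 1.17 and 1.24 higher in TSA-treated than in non-diabetic spleens, and Anp32e 0.75 higher. Vps72, the subunit that carries H2A.Z in the SRCAP complex, differed by −1.53, and Ubn1, of the HIRA complex, by −1.55, whereas Hira itself differed by 0.40. All of these had the same sign in diabetic minus non-diabetic spleens, with Asf1a at 0.94, Asf1b 0.78, Anp32e 0.64, Vps72 −0.88, Ubn1 −1.63 and Hira 0.39. For Ubn1 the diabetic arrays read 7.61 and 4.38. Of other factors named above, Srcap differed by −0.01, Ep400 (p400) by 0.25, Daxx by −0.79 and Atrx by 0.46 between TSA-treated and non-diabetic spleens.

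Among other histones, the centromeric H3 variant Cenpa had the order of H2az1, and the linker histone gene H1f2 and the H2B gene H2bc21 had their highest levels in TSA-treated spleens. Of 7 other variants, 6 were measured and 0 called, with 1 higher at an unadjusted p under 0.05 in TSA-treated minus non-diabetic and 1 in diabetic minus non-diabetic spleens, both times Cenpa. It read 9.41 and 9.01 in TSA-treated, 8.79 and 8.90 in diabetic and 8.17 and 8.03 in non-diabetic spleens. H2aj and H1f10 differed by 0.12 and −0.29 between TSA-treated and non-diabetic spleens. Replication-dependent histones are made mostly as mRNAs without a poly(A) tail, and the array's labelling starts from that tail, so that only their tailed transcripts were read. The 9 genes listed were picked by symbol among genes with a probe set of their own. The list thus leaves out any such histone gene without one. Of the 9, 0 were called. At an unadjusted p under 0.05, 5 were higher (8.8% of all genes) and 0 lower in TSA-treated minus non-diabetic spleens. The counts were 0 and 1 in diabetic minus non-diabetic, and 4 (2.68% of all genes) and 0 in TSA-treated minus diabetic spleens. H1f2 read 11.59 and 11.36 in TSA-treated, 10.28 and 10.60 in diabetic and 10.49 and 10.44 in non-diabetic spleens. H2bc21 read 7.22 and 7.74 in TSA-treated, 6.37 and 6.41 in diabetic and 6.2 and 6.18 in non-diabetic spleens. Between diabetic and non-diabetic spleens H1f2 differed by −0.02 and H2bc21 by 0.20, and the 9 genes lay between −0.46 and 0.25. H2bc18 differed by −0.44 between TSA-treated and non-diabetic spleens.

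Genes of proliferating cells and of erythroid precursors had median differences above 0 in every comparison. Of 24 listed proliferation genes, 23 were measured and 0 called, with 12 higher (8.8% of all genes) and 0 lower at an unadjusted p under 0.05 in TSA-treated minus non-diabetic, 9 (4.33%) and 0 in diabetic minus non-diabetic and 4 (2.68%) and 0 in TSA-treated minus diabetic spleens. Their median differences were 0.77, 0.68 and 0.17. Mki67, a marker of cycling cells that the study also listed, read 12.39 and 12.41 in TSA-treated, 11.91 and 12.22 in diabetic and 11.39 and 11.45 in non-diabetic spleens. Stmn1 (a microtubule regulator that the study also listed) and Pcna (the replication clamp) differed by 0.99 and 0.69 between TSA-treated and non-diabetic spleens. Of the 23 genes, 3 had values below 0 in this comparison, the thymidylate synthase gene Tyms (−0.35), Ube2c (−0.35), of the mitotic ubiquitin machinery, and the mitotic kinase gene Plk1 (−0.12). The mean level of the 23 genes was 9.97 and 9.24 on the TSA-treated, 9.36 and 9.64 on the diabetic and 8.89 and 8.85 on the non-diabetic arrays.

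Of 10 listed erythroid genes, 8 were measured and 0 called, with 5, 4 and 2 higher (8.8%, 4.33% and 2.68% of all genes) and 0 lower in these comparisons at an unadjusted p under 0.05 and median differences of 0.74, 0.56 and 0.25. Their mean level was 10.90 and 10.03 on the TSA-treated, 10.38 and 10.32 on the diabetic and 9.83 and 9.82 on the non-diabetic arrays. Hemgn and Ermap, both of erythroid precursors and both also on the study's list, differed by 1.34 and 1.38 between TSA-treated and non-diabetic spleens, and Slc4a1, the anion exchanger of red cells, by 0.54. Of the 8 genes, 2 had values below 0 in this comparison, Alas2, of heme synthesis (−1.11), and the transcription factor gene Gata1 (−0.66). B cell genes went the other way, with 4 of 5 measured, 0 called, 4, 1 and 3 lower at an unadjusted p under 0.05 (7.19%, 2.41% and 2.81% of all genes) and a median difference of −1.25, −0.38 and −1.22. Of these, Ms4a1 read 10.90 and 9.60 in TSA-treated, 11.46 and 11.36 in diabetic and 11.52 and 11.47 in non-diabetic spleens, with Cd79b at −1.26 and Cd79a at −3.10 for TSA-treated minus non-diabetic. All 5 T cell genes were measured and 0 called, with 4, 1 and 1 lower at an unadjusted p under 0.05 (the same shares of all genes) and median differences of −0.78, −0.28 and −0.49. Macrophage genes had medians of −0.13, 0.31 and −0.50, and neutrophil genes −0.55, 0.55 and −1.10, with 0 of 5 called in each. The mean level of the macrophage genes was 8.65 and 6.91 on the TSA-treated, 8.82 and 8.69 on the diabetic and 8.62 and 8.65 on the non-diabetic arrays. For the neutrophil genes it was 11.25 and 10.44, 11.66 and 11.77, and 11.07 and 11.18. In both lists only TSA-treated replicate 2 had a mean level below the non-diabetic arrays. At an unadjusted p under 0.05, 1 macrophage gene was higher and 1 lower in TSA-treated minus non-diabetic and 1 was higher in diabetic minus non-diabetic spleens, while 2 neutrophil genes were higher in each of these comparisons and 3 were lower in TSA-treated minus diabetic spleens. Exocrine pancreas genes were the only listed group with calls, 2 of 4 higher in TSA-treated and 3 of 4 higher in diabetic than in non-diabetic spleens, among them Clps (pancreatic colipase, also on the study's list) at 5.47 (adjusted p = 0.0021) and 7.91 (adjusted p = 0.000177). The part of these cell types in the levels of the histone variants was not tested.

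**Figure D4:**
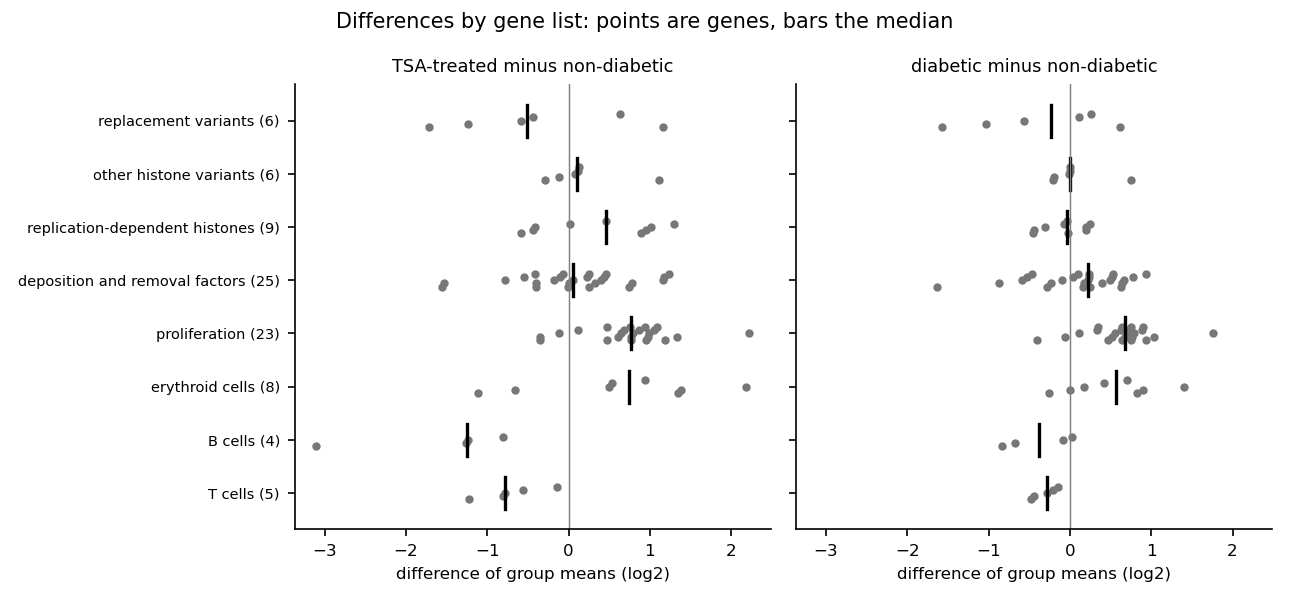
Log2 difference of group means (horizontal axis) of each measured gene in the lists, with 1 point per gene and a bar at the median of the list, for TSA-treated minus non-diabetic and diabetic minus non-diabetic spleens. Proliferation genes have medians of 0.77 and 0.68 and erythroid genes of 0.74 and 0.56, and the replacement variants spread to both sides of 0.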

How the data were processed

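Per the labels, total RNA extracted with TRIzol from NOD spleen cells was labelled by the Affymetrix 3′ IVT protocol, and RMA made the values. The deposited values are log2 levels, background-corrected, quantile-normalized and summarised per probe set by the authors; the methods name S-Plus with S+Array Analyzer as the software. Scanner files were not used here. The 45101 probe sets of the deposited table, less 64 controls, were named by the platform's gene annotation (34945 name 1 gene, 932 several, 9160 none). limma 3.58.1 (R 4.3.3) was fitted to all 6 arrays with 1 mean per group (3 residual degrees of freedom), with Benjamini-Hochberg adjustment over all 45037 probe sets. Of the tests the methods name, the t-test was run as an alternative and the LPE test was not run. Differences are of group means and SE come from limma. P-values cover the spread between hybridizations of 1 pool and say nothing of the spread between mice. Groups were those of the labels. The members and the gene lists were chosen with earlier results of these data known, and a list is described by counts and medians only. Genes of a list are represented by their probe set with the highest mean level that names them alone, and the 3 genes named per list are those with the highest mean level. The 5 genes most like H2az1 were taken among probe sets that name 1 gene, have a mean above the median probe set (3.89) and an SD of at least 0.25. The fit was run on simulated data with planted differences and independent noise. That run checked only that the size of a difference was recovered, and not how reliable calls on these arrays are. Array-to-array precision is limited by 2 arrays per group.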

Additional observations from a re-analysis of the deposited data

How the results depend on the processing

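Another normalization of the values (quantile normalization again or median centring), the filter on low levels and the replicate block left the count of called replacement variants at 0. With 1 array left out, where the lone array of a group is assumed to vary like the other duplicates, called members ranged over 0 to 4 in TSA-treated minus non-diabetic, 0 to 1 in diabetic minus non-diabetic and 0 to 1 in TSA-treated minus diabetic spleens. Calls over all probe sets were 31, 40 and 12 in the main setting, and ranged over 0 to 2045, 23 to 243 and 0 to 1047 when 1 array was left out. The median difference of the member genes ranged over −1.09 to 0.077, −0.46 to −0.01 and −0.48 to 0.41. With TSA-treated and non-diabetic arrays fitted alone, 714 probe sets and 1 member (H3f3a, 1442087_at) were called, and with TSA-treated and diabetic arrays alone 0. Quantile normalization again gave 60 calls for TSA-treated minus non-diabetic. For TSA-treated minus diabetic, median centring gave 0 and a mean above the median probe set gave 22. The methods' t-test gave 5241, 2667 and 1359 unadjusted calls over all probe sets and 5, 2 and 1 members, and 2, 1 and 0 over all probe sets after Benjamini-Hochberg adjustment. The causes were not tested. Deviations of same-numbered arrays from their group means correlated at −0.105, −0.0363 and −0.335, so the numbers do not pair the arrays. With a replicate block, calls were 30, 33 and 0 over all probe sets, and 0 members. Of 180 member differences with 1 array left out, 161 kept their sign, and of 90 under other normalizations, 86 did. Spread between mice is not measured, and members near the array median (1436596_at of H2az2, 1430357_at of H3f3b and, on diabetic replicate 2, 1442087_at of H3f3a) are close to the background.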
